A study of Homo sapiens with 3 samples.

Results

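The CCT chaperonin, also called TRiC, was followed through the messenger RNAs of its 8 subunits, TCP1 and CCT2 to CCT8, with 1 RefSeq transcript for each subunit. The 8 transcripts were chosen by identifier. 7 of them were among the 25443 transcripts listed in at least 1 sample, each with a value in every sample, and that of CCT7 was listed in none. CCT is a barrel of stacked rings in the cytosol, and each ring holds a single copy of every subunit. Newly made proteins fold inside its closed cavity at the cost of ATP. Actin and tubulin are the best known proteins that need it, and prefoldin hands them over to the barrel.

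The RNA came from HEK293T cells, an adherent line from human embryonic kidney for which the labels give the parent line's name without the T, and each condition was 1 sample. The control sample was grown in normal medium without BDE-209 or solvent according to its title, the treatment protocol and the study, although its own treatment label can be read as BDE-209 without DMSO. Every value set against the control rests on the first reading. The DMSO sample received the solvent dimethyl sulfoxide at 1 mM for 48 h. The BDE-209 sample received decabromodiphenyl ether, a flame retardant, at 1 uM in the same 1 mM DMSO for 48 h, so the sample that matches it in solvent is DMSO, not the control. No condition had a second culture, so the differences below compare 3 libraries, and all intervals cover counting error only.

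Levels are RPKM, read counts scaled for transcript length and for the number of mapped reads, which can be compared between transcripts of different length. The steps of the values gave the mapped reads behind them, 4843624 in the control, 4782043 in DMSO and 4676793 in BDE-209, so that 1 read on a transcript of 1 kb was worth 0.2065 to 0.2138 RPKM. The files listed 23089 to 23200 transcripts per sample. Of 7 markers taken for this line, VIM, the vimentin of the intermediate filaments, was at 299.1, 295.8 and 261.0 RPKM in control, DMSO and BDE-209, NEFM was at 49.8 to 54.1 RPKM, NEFL at 24.4 to 27.9 RPKM, KRT18 at 40.7 to 48.1 RPKM, KRT8 at 5.93 to 6.38 RPKM, LHX1 at 0.914 to 1.43 RPKM, and PAX2 was not listed. PAX2 has 5 RefSeq transcripts, a class of genes treated below, so its absence is not read as low expression. Of 4 markers of other cell types, PTPRC of blood cells was not listed, ALB of liver cells was at 0.0912 to 0.0944 RPKM, EPCAM of epithelia at 0.865 to 2.15 RPKM and COL1A1 of fibroblasts at 4.44 to 5.19 RPKM.

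6 subunits were abundant and lay within a narrow range, while CCT3 and CCT7 stood far below them. CCT3, the gamma subunit, had 5.78 RPKM in the control, 4.47 RPKM in DMSO and 6.29 RPKM in BDE-209. These values rested on 59, 45 and 62 reads, with 95% Poisson intervals of 4.401 to 7.457, 3.258 to 5.976 and 4.824 to 8.066 RPKM. The mean of the 6 abundant subunits was 41.5, 50.6 and 36.9 times the level of CCT3 in the same samples. CCT7, the eta subunit, was listed at 0 in all 3 samples. A count of 0 allows up to 3 reads, or 0.335, 0.34 and 0.347 RPKM over the 1847 bases of its GENCODE transcript, and at the mean level of the 6 it would have had 2149, 1996 and 2007 reads.

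The coding sequence of both low genes holds stretches that occur nowhere in the genome outside the gene, and 1 window of read length from each is shown. Whether the authors kept a read from it was not tested, because their treatment of reads shared by transcripts of 1 gene is not given. Both windows come from the reference genome GRCh37, lie inside exon 12 of the GENCODE canonical transcript, and have no other site with up to 2 mismatches. The CCT3 window is at chr1:156280741-156280789 on the minus strand, and the CCT7 window is at chr2:73479768-73479816 on the plus strand.
CCT3: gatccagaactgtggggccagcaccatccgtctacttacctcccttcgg
CCT7: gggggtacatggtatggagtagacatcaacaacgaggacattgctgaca

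TCP1, the alpha subunit (NM_030752), had 261.4 RPKM in the control, 233.8 RPKM in DMSO and 238.0 RPKM in BDE-209. CCT2, the beta subunit (NM_006431), had 261.2, 245.7 and 247.9 RPKM in the same order. CCT4, the delta subunit (NM_006430), had 256.3, 259.6 and 265.6 RPKM. CCT4 thus ranked behind TCP1 and CCT2 in the control and ahead of them in both samples that contained DMSO.

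CCT5, the epsilon subunit (NM_012073), was the lowest of the 6 in every sample with 203.1, 189.5 and 198.6 RPKM. CCT6A, the zeta subunit that is used outside the testis (NM_001762), had 226.5, 207.5 and 212.7 RPKM. CCT8, the theta subunit (NM_006585), had 232.6, 220.2 and 231.2 RPKM. Each of the 6 was backed by 1995 to 3347 reads in every sample and lay among the top 0.916% to 1.42% of listed transcripts, whereas CCT3 lay at the top 42.8% to 47.8%.

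**Figure D1:**
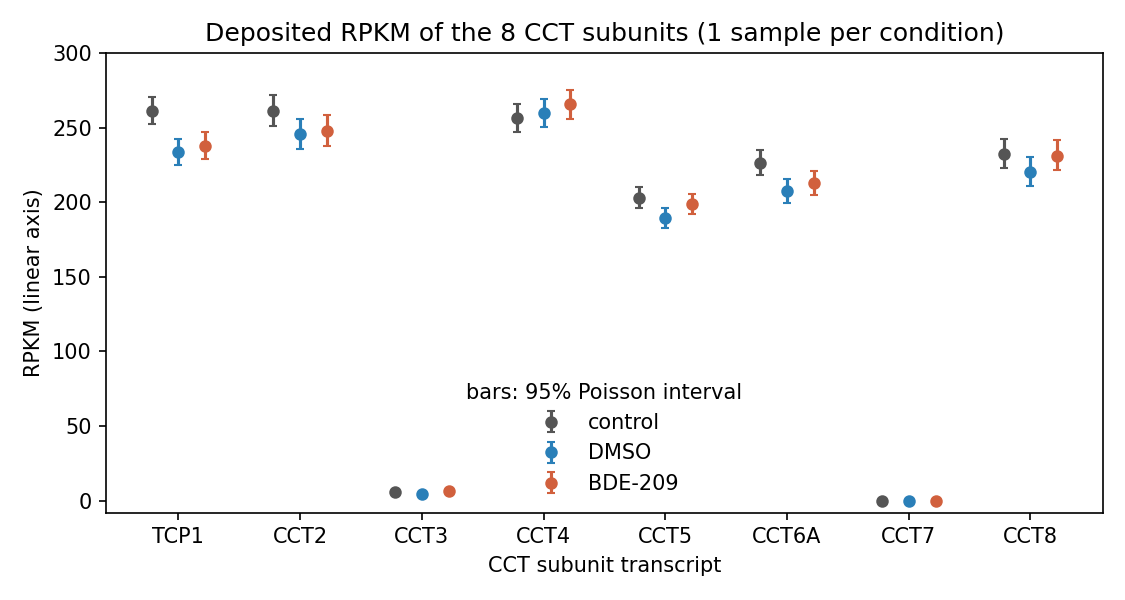
RPKM (vertical, linear axis) of the 8 CCT subunit transcripts (horizontal) in the control, DMSO and BDE-209 samples, with 95% Poisson intervals on the recovered reads. 6 subunits lie between 189.5 and 265.6 RPKM, CCT3 lies between 4.47 and 6.29 RPKM, and CCT7 is drawn at 0 because it is not listed.

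Over all 8 subunits the coefficient of variation of the levels was 61.7% in the control, 62.2% in DMSO and 61.7% in BDE-209. Without CCT3 and CCT7, a choice made after the values were seen, it was 9.8%, 11.3% and 10.4%. The 6 had a mean of 240.2 ± 23.54 RPKM in the control, 226 ± 25.65 RPKM in DMSO and 232.3 ± 24.11 RPKM in BDE-209 (SD over the 6 transcripts). The highest of them exceeded the lowest 1.29-fold, 1.37-fold and 1.34-fold.

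The order of the 6 changed little between samples. In the control it ran TCP1, CCT2, CCT4, CCT8, CCT6A, CCT5, and only the steps from CCT4 to CCT8 (log2 ratio 0.14, 95% interval 0.059 to 0.22) and from CCT6A to CCT5 (0.16, 0.086 to 0.23) went beyond counting error. TCP1 and CCT2, and CCT2 and CCT4, did not differ beyond counting error there. In both DMSO and BDE-209 the order ran CCT4, CCT2, TCP1, CCT8, CCT6A, CCT5. The steps from CCT4 to CCT2, from CCT8 to CCT6A and from CCT6A to CCT5 went beyond counting error in both samples, although the first of these had a lower bound of only 0.0002 in DMSO. CCT2 and TCP1 did not differ beyond counting error in either, and TCP1 and CCT8 did in DMSO (0.087, 0.0033 to 0.17) but not in BDE-209 (0.042, -0.042 to 0.12). As a share of the summed level of the 6, TCP1 held 18.14% in the control, 17.24% in DMSO and 17.07% in BDE-209, and CCT4 held 17.79%, 19.14% and 19.05%.

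Some of these genes have near-identical processed copies elsewhere in the genome, and the authors kept only uniquely placed reads. Every window of 49 bases, the read length, along the GENCODE canonical transcript of each gene was compared with GRCh37. CCT8 had the smallest share of windows without another site at up to 2 mismatches, 32.5%, followed by TCP1 with 42.71%, CCT6A with 64.55% and CCT5 with 78.83%. CCT7 had 85.21%, CCT4 95.4%, CCT3 99.48% and CCT2 99.84%. All windows of CCT2, CCT3 and CCT7 (100%) were without another exact site. The share of windows that lay within 1 exon ran from 61.46% for CCT2 to 85.21% for CCT5. The part of all these shares in the levels was not tested.

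Dividing each level by the share without another exact site, which was 83.28% for CCT8 and 91.1% for TCP1, left the 6 subunits about as even, with coefficients of variation of 10.8%, 11.3% and 11% in control, DMSO and BDE-209. Dividing by the stricter share gave 49%, 47.8% and 48.7%, with CCT8 at 715.7 RPKM and TCP1 at 611.9 RPKM in the control. How much of each transcript the authors' alignment could use is not given in the sources used here, so the evenness of the 6 depends on that choice.

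**Figure D2:**
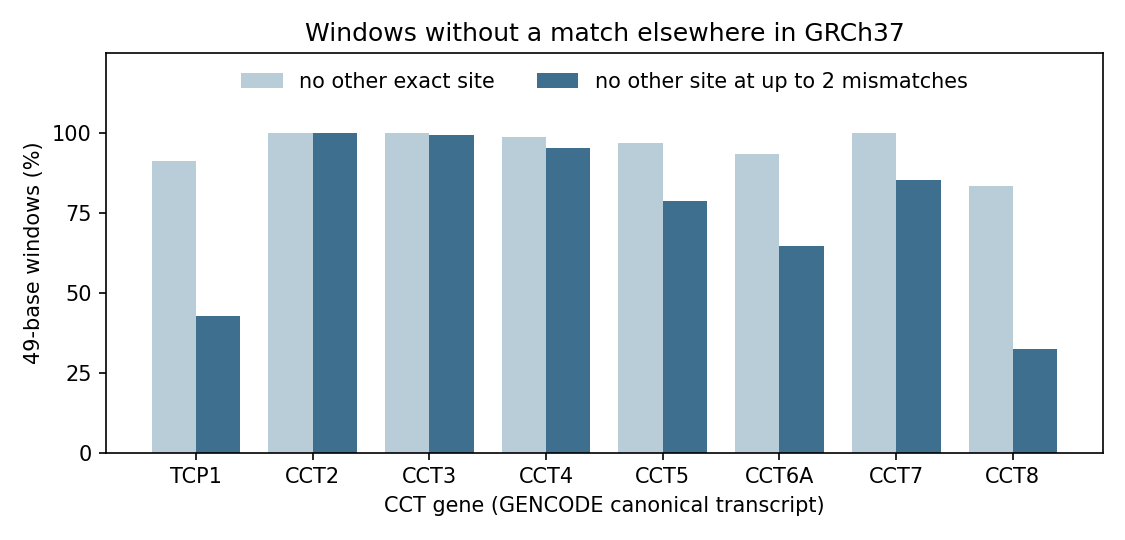
Share of 49-base windows (vertical, percent) along the canonical transcript of each CCT gene (horizontal) that match no other place in GRCh37, exactly (light bars) or at up to 2 mismatches (dark bars). The dark bars are lowest for CCT8 at 32.5% and TCP1 at 42.71%, and reach 99.48% for CCT3 and 85.21% for CCT7.

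The other coding transcripts of TCP1, CCT2 and CCT6A had levels near those of the chosen ones. NM_001008897 of TCP1 had 262.6, 236.2 and 240.4 RPKM in control, DMSO and BDE-209, NM_001198842 of CCT2 had 232.0, 217.4 and 219.4 RPKM, and NM_001009186 of CCT6A had 215.2, 196.2 and 202.8 RPKM. For CCT2 the reads were 2464, 2280 and 2250 against 2482, 2305 and 2275 for the chosen transcript. For CCT6A they were 2655, 2390 and 2416 against 2943, 2661 and 2668. Whether the same reads were counted for both transcripts of a gene was not tested, so these are not read as separate levels. Both coding transcripts of CCT3 carried the same 59, 45 and 62 reads, and its noncoding transcripts carried 14, 6 and 6 reads (NR_036564) and 8, 6 and 3 reads (NR_036565). Of the 6 transcripts of CCT7, only NM_001166285 was listed, with 1 read in BDE-209. The low values of both genes thus held for all of their transcripts.

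The number of RefSeq transcripts per gene differed in the same way. CCT4, CCT5 and CCT8 had 1 transcript and TCP1, CCT2 and CCT6A had 2, while CCT3 had 4 and CCT7 had 6. Across all coding genes, 1448 of 15872 genes with 1 or 2 transcripts (9.12%) reached a mean of 50 RPKM in their highest coding transcript, against 22 of 2730 genes with 3 or more (0.806%). The median of that highest level was 3.88 RPKM in the first class and 0.315 RPKM in the second. ACTG1 and ACTB, the cytoplasmic actins and both substrates of CCT, split in the same way, with 56.7 to 61.7 RPKM for ACTG1, which had 3 transcripts, and 1385 to 1525 RPKM for ACTB, which had 1. This division was chosen after the values were seen and after a division by coding and noncoding transcripts had been looked at, the transcripts per gene come from a later RefSeq release limited to identifiers no newer than the newest in the files, and how the authors treated reads shared by transcripts of 1 gene is not given in the sources used here. Its part in the low values of CCT3 and CCT7 was not tested, so those values are given as listed and are not read as low expression of the 2 genes.

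**Figure D3:**
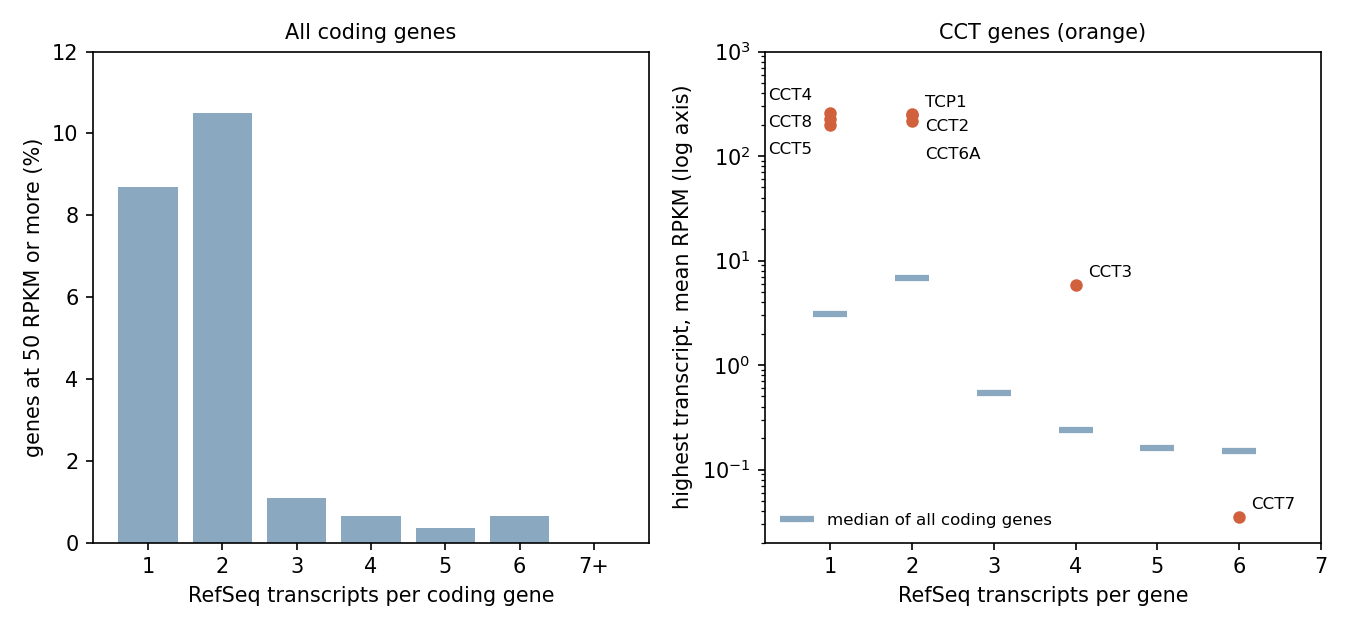
Left, percent of coding genes (vertical) whose highest coding transcript has a mean of at least 50 RPKM, by number of RefSeq transcripts per gene (horizontal). Right, mean RPKM over the 3 samples of the highest coding transcript (vertical, log axis) against the number of transcripts, for the 8 CCT genes (points) and as the median of all coding genes (dashes). The share falls from 8.69% and 10.5% at 1 and 2 transcripts to 1.08% at 3, and CCT3 and CCT7 are the CCT genes with more than 2 transcripts.

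DMSO was set against the control to see what the solvent alone went with. The summed RPKM of the 8 subunits was 1447 in the control and 1361 in DMSO, so that it fell by 5.96% (log2 ratio -0.089, 95% interval -0.12 to -0.060). TCP1 fell by 10.5% (-0.16, -0.24 to -0.086), CCT6A fell by 8.42% (-0.13, -0.20 to -0.051), CCT5 fell by 6.7% (-0.10, -0.17 to -0.029) and CCT2 fell by 5.94% (-0.088, -0.17 to -0.0059). The interval included 0 for CCT8 (-0.079, -0.17 to 0.0093), for CCT3 (-0.37, -0.97 to 0.21) and for CCT4 (0.018, -0.056 to 0.093). CCT4 was the only member with a higher value in DMSO. In a bulk sample a smaller share of cells with the transcript and less RNA per cell cannot be told apart.

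So 4 of the 7 listed members lay below the control beyond counting error and 0 lay above it. Among the 8059 transcripts with a mean of at least 10 RPKM, 5.17% lay below the control by the same measure and 6.51% above it, with a median log2 ratio of 0.0045. Among the 266 transcripts with a mean between 150 and 300 RPKM, a band chosen after the values were seen because counting error is as small there, 12% lay below and 9.77% above, with a median of -0.0074. No member reached the 2-fold change used in the study, which 1.57% of 24589 transcripts did. Counting with the study's totals of uniquely mapped reads in place of the totals behind the RPKM moved every ratio up by 0.042, so that the sum was at -0.047 and TCP1 and CCT6A were the 2 members left below the control beyond counting error. With RPKM scaled to equal sums over all transcripts, the interval of CCT2 included 0 as well.

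**Figure D4:**
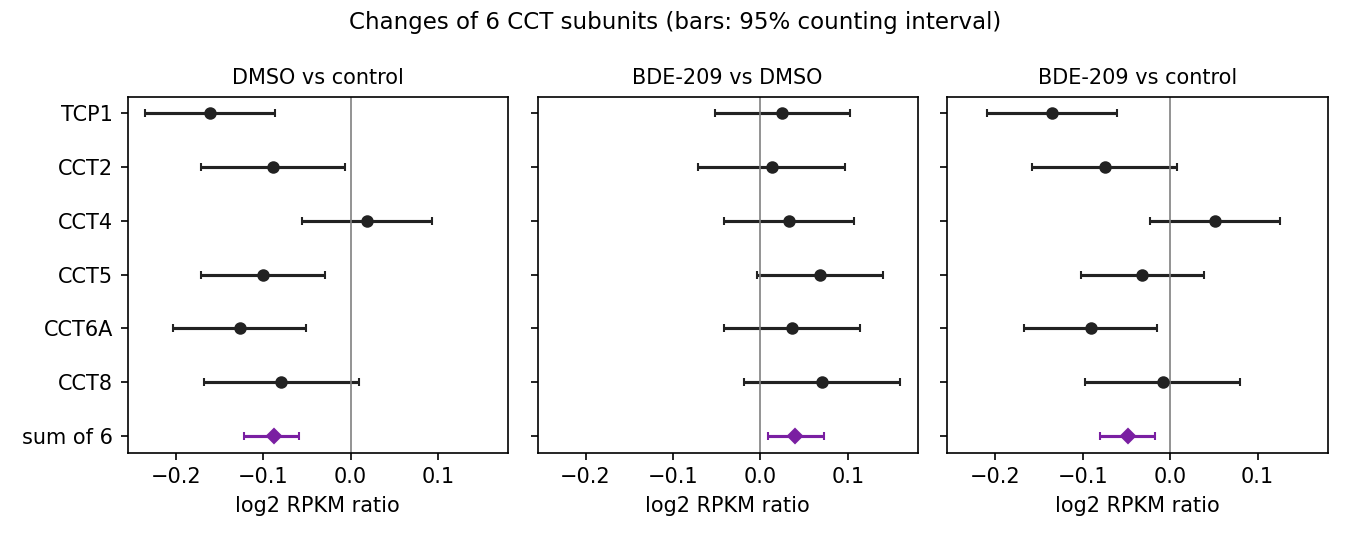
Log2 ratio of RPKM (horizontal) for the 6 abundant CCT subunits and their sum (vertical) in each of the 3 comparisons, with 95% Clopper-Pearson intervals on reads, which cover counting error only. TCP1, CCT2, CCT5 and CCT6A lie below 0 in DMSO against the control, the interval of every subunit includes 0 in BDE-209 against DMSO, and TCP1 and CCT6A lie below 0 in BDE-209 against the control.

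BDE-209 was set against DMSO, its solvent match, to see what the flame retardant went with. The summed RPKM was 1361 in DMSO and 1400 in BDE-209, higher by 2.92% (0.041, 0.011 to 0.074), but the interval of every listed member included 0. The ratios were 0.071 for CCT8 (-0.019 to 0.16), 0.068 for CCT5 (-0.0039 to 0.14), 0.036 for CCT6A (-0.042 to 0.11), 0.033 for CCT4 (-0.041 to 0.11), 0.025 for TCP1 (-0.052 to 0.10) and 0.013 for CCT2 (-0.071 to 0.097). CCT3 had a ratio of 0.49 on 62 against 45 reads (-0.083 to 1.08). The intervals of the 6 abundant subunits thus ended at 0.16 or lower and at -0.071 or higher, while that of CCT3 was far wider.

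Beside these 0 of 7 members, 3.57% of the 8059 transcripts lay above DMSO beyond counting error and 3.8% below it. The median log2 ratio was -0.0047, and 1.74% of 24608 transcripts changed 2-fold. In the band of 266 transcripts between 150 and 300 RPKM, 4.51% lay above and 7.14% below, with a median of -0.013. All 7 listed members had a value above DMSO as deposited, but with the study's totals of uniquely mapped reads TCP1, CCT2, CCT4 and CCT6A fell to ratios of -0.014, -0.026, -0.0063 and -0.0035, and the sum to 0.0021 (-0.029 to 0.035). Whether the sum was higher in BDE-209 therefore depended on which totals were used.

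BDE-209 against the control spans both steps and shares its samples with them. The sum fell by 3.21% (-0.047, -0.080 to -0.017). TCP1 fell by 8.96% (-0.14, -0.21 to -0.061) and CCT6A fell by 6.11% (-0.091, -0.17 to -0.015), and the intervals of CCT2 (-0.075, -0.16 to 0.0076), CCT5 (-0.032, -0.10 to 0.039), CCT8 (-0.0088, -0.097 to 0.079), CCT4 (0.052, -0.023 to 0.13) and CCT3 (0.12, -0.42 to 0.66) included 0. Of the 8059 transcripts, 6.02% lay below the control and 6.45% above it, and 1.5% of 24661 changed 2-fold. In the band of 266 transcripts between 150 and 300 RPKM, 14.7% lay below and 7.52% above, with a median of -0.023. TCP1 and CCT6A were thus below the control in both samples that contained DMSO, with each of the 4 ratios also below 0 under every scaling tried. With RPKM scaled to equal sums over all or over coding transcripts, the interval of CCT6A in BDE-209 against the control included 0, and with equal sums over all transcripts so did that of the sum (-0.022, -0.054 to 0.0084).

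The upstream sequence is shown for TCP1, which had the largest fall from the control beyond counting error, and for CCT2, which also lay below it in DMSO, because their windows hold letters of a heat shock element, the site of the heat shock factor HSF1. No window was matched for CCT6A, whose fall in DMSO was next in size. The window of CCT5, which also fell, held none of the letters searched. Whether the start of that window is the start of NM_012073 was not checked. The 250 bases before it hold an ATG followed by an open reading frame. This window is therefore not taken as the promoter of CCT5, and its lack of these letters is not read as a result. RefSeq promoter windows (GRCh38.p14, 250 bases before to 50 after a start) matched 7 of the 8 genes, with 9 windows. The 250 bases before the start are printed, with GAANNTTC in capitals. They come from chr6:159789603-159789852 on the minus strand for TCP1 and from chr12:69585639-69585888 on the plus strand for the second start of CCT2. That CCT2 stretch lies downstream of the first CCT2 start, whose own 250 bases are at chr12:69585209-69585458. Which CCT2 start belongs to NM_006431 was not checked.
TCP1: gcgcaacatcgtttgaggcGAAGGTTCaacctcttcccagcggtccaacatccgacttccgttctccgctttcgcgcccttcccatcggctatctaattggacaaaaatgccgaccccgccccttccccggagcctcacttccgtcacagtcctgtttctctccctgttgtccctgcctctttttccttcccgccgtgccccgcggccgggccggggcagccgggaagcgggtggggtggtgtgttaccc
CCT2: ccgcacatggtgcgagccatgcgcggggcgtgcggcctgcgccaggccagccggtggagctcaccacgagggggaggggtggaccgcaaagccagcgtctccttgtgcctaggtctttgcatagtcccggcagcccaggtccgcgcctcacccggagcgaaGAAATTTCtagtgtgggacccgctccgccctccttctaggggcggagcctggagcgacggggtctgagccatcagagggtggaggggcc

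GAANNTTC, searched on both strands, stood once in the TCP1 window, at position -231 from the start, and once in this CCT2 window, at position -89, but not in the window of the other CCT2 start. It was in 6.77% of 35093 windows of the same length over all genes and in no window of the other 5 genes. The reverse arrangement TTCNNGAA was in 7.74% of all windows and in 1 of those of CCT4, the subunit with no lower value in DMSO, 38 bases after the start, and overlapped no GAANNTTC there. CCAAT, in 34.6% of all windows, was in those of TCP1, CCT2, CCT3 and CCT8, and the E-box CACGTG, in 7.26%, was in none. These are matches of letters and not sites of binding.

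The genes that work with CCT were taken as a list of 25, of which 24 had values to compare. Prefoldin, the complex that delivers actin and tubulin to CCT, had its 6 subunits at 25.7 to 183.2 RPKM. Its PFDN6 was lower in DMSO than in the control (67.2 and 53.2 RPKM, -0.34, -0.65 to -0.025), and the intervals of the other 5 included 0. The phosducin-like cofactors PDCL, PDCL3 and TXNDC9, which regulate folding by CCT, were at 10.95 to 28.9 RPKM, and none of their intervals left out 0. CCT6B, the zeta subunit of the testis, had 3 listed transcripts. The one with the highest mean was at 0.2204 RPKM in DMSO and at 0 in control and BDE-209. With 3 RefSeq transcripts for the gene, these values are not read as low expression or as a difference of CCT6B.

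The mitochondrial chaperonin HSPD1, a relative of CCT, had 583.9, 563.2 and 564.5 RPKM in control, DMSO and BDE-209 and was lower in DMSO than in the control by a small margin (-0.052, -0.10 to -0.0019), which included 0 with equal RPKM sums over all or over coding transcripts and with the study's totals. Its partner HSPE1 had 148.3, 138.3 and 144.5 RPKM (-0.10, -0.26 to 0.056 in DMSO against the control). HSF1 had 43.7, 41.4 and 40.0 RPKM (-0.076, -0.27 to 0.12). HSPA8, the cytosolic HSC70 that also passes proteins on to CCT, had 1314, 1021 and 1005 RPKM, a log2 ratio of -0.36 in DMSO against the control (-0.40 to -0.33). This interval lay wholly below that of TCP1, the abundant subunit that differed most.

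Of 11 substrates of CCT, 3 lay below the control in DMSO and 3 lay below DMSO in BDE-209. The shares were 5.17% and 3.8% of transcripts with a mean of at least 10 RPKM. They were 9.41% and 6.64% of those with at least 50 RPKM. No share was taken at the far higher levels of ACTB, TUBA1B and TUBA1C, where intervals are narrower. The counts are therefore not read as an excess. With the study's totals, CDC20 was the 1 substrate left below the control in DMSO, TUBA1B lay above it, and 4 lay below DMSO in BDE-209. ACTB had 1525, 1476 and 1385 RPKM and was among both, with ratios of -0.047 (-0.081 to -0.012) and -0.092 (-0.13 to -0.056). TUBA1B (-0.10, -0.14 to -0.060) and TUBA1C (-0.12, -0.17 to -0.069), alpha tubulins whose share of unique windows was not measured, were the others that were lower in BDE-209 than in DMSO. TUBB4B, a beta tubulin (-0.12, -0.21 to -0.026), and CDC20, an activator of the anaphase-promoting complex that is folded by CCT (-0.19, -0.33 to -0.047), were the others that were lower in DMSO than in the control.

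Over the 24 genes, 6 lay below the control beyond counting error in DMSO, 3 lay below DMSO in BDE-209 and 7 lay below the control in BDE-209, and 0 lay above in any comparison with RPKM as deposited. The shares below 0 over all transcripts were 5.17%, 3.8% and 6.02% at a mean of at least 10 RPKM. At a mean of at least 50 RPKM they were 9.41%, 6.64% and 11.8%. No share was taken at the far higher levels of genes such as HSPA8 and ACTB, where intervals are narrower. The median log2 ratios of the 24 genes were -0.054, -0.050 and -0.13 in the same order. With the study's totals, which move the ratios of DMSO against the control up by 0.042 and those of BDE-209 against DMSO down by 0.039, the counts below were 2 (HSPA8 and CDC20), 6 and 7, and TUBA1B lay above the control in DMSO. PFDN6, HSPD1, ACTB and TUBB4B were the 4 genes whose interval in DMSO against the control then included 0.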

How the data were processed

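The authors extracted RNA with Trizol, enriched it by the polyA tail and sequenced single-end reads of 49 bases on an Illumina HiSeq2000. They aligned the reads to hg19 with SOAPaligner 2.21 at up to 2 mismatches and kept unique reads. The deposited values are RPKM per RefSeq transcript, 1 list per sample, with 6 significant digits. An identifier absent from a list was taken as 0.

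The 8 transcripts and all gene lists were chosen with earlier results of these data known. For other transcripts of these genes all listed ones were taken, for a list the transcript with the highest mean, and for likeness the 5 coding transcripts with a mean of at least 50 RPKM whose pair of log2 ratios (DMSO over control, BDE-209 over DMSO) was nearest to that of the summed subunits. Symbols came from RefSeq (GRCh38.p14) for 24434 of 25443 transcripts (96%). Values are whole multiples of what 1 read is worth, which gave the total behind the RPKM of each sample and, at the smallest transcript length that fitted all samples, whole reads for 25438 transcripts. These reads are lower bounds. Log2 ratios of deposited RPKM have 95% Clopper-Pearson intervals on reads, without a pseudocount for members and with 0.5 RPKM added for the 2-fold share. The interval of a sum pools the reads of its members. With 1 sample per condition no test between conditions was made, and the NOISeq probabilities of the study were not used. The recovery of reads and the intervals were also run on simulated Poisson counts built from the recovered lengths and totals. That run cannot check those lengths and totals in the deposited values. Intervals were computed in scipy 1.17.1 and tables in pandas 2.3.3 (Python 3.11.15), and windows were matched with numba 0.67.0 and numpy 2.4.6 against GENCODE 44 on GRCh37, the sequence of hg19. Protein sequences were not used here.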

Additional observations from a re-analysis of the deposited data

How the results depend on the processing

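No paired analysis was possible because each condition was 1 sample and the labels carry no replicate numbers, and for the same reason no replicate could be left out. The alternatives without CCT3 and CCT7, with exact windows and with the study's totals of uniquely mapped reads were added after seeing the data. The ratio of the sums kept its sign in all 3 comparisons under every alternative, at 0.0021 to 0.056 for BDE-209 against DMSO, -0.10 to -0.047 for DMSO against the control and -0.064 to -0.022 for BDE-209 against the control. The lowest value of the first (0.00208) and the highest of the second (-0.0471) came from the study's totals, which put the first within counting error of 0 and left 2 of 4 members below the control in DMSO. Scaling to equal RPKM sums over all transcripts, to equal sums over coding transcripts or by median-of-ratios factors raised the members above DMSO in BDE-209 from 0 to 1, CCT5. Over the partner list, the genes below the control in DMSO numbered 2 to 6 under the scalings, those below DMSO in BDE-209 3 to 6, and those below the control in BDE-209 5 to 9. With equal sums over all or over coding transcripts, 1 member (TCP1) rather than 2 lay below the control in BDE-209, and with equal sums over all transcripts 1 lay above it, CCT4.

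The share of transcripts that changed 2-fold was 1.1%, 1.03% and 0.938% at a mean of at least 1 RPKM, and 0.821%, 0.708% and 0.783% with 1 RPKM added, for BDE-209 against DMSO, DMSO against the control and BDE-209 against the control. At a mean of at least 50 RPKM, 6.64%, 9.41% and 11.8% lay below in the same order, and 8.1% lay above in DMSO against the control. The coefficient of variation over the 8 subunits in control, DMSO and BDE-209 was 82.3%, 81.5% and 82% per uniquely mapping length at 2 mismatches, and 62%, 62.3% and 61.9% per length without another exact site. It was 75%, 73.8% and 72.7% with all transcripts of a gene summed, 68.1%, 68.3% and 67.7% without the highest subunit, 44.1%, 44.7% and 44.1% without the lowest, and 9.8%, 11.3% and 10.4% without CCT3 and CCT7. A sum over the transcripts of a gene may count a shared read more than once. Depth limits CCT3, with 45 to 62 reads, to differences of about its 95% intervals, and 1 library per condition limits every comparison to those libraries.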

Other observations

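The coding transcripts whose levels moved most like the summed CCT subunits were named by the distance between their pairs of log2 ratios, among 1834 transcripts with a mean of at least 50 RPKM. The nearest was that of JTB, a membrane protein, with 71.0, 66.8 and 68.7 RPKM in control, DMSO and BDE-209 and a distance of 0.0021. GNL2, a nucleolar GTPase of ribosome assembly, followed with 77.2, 72.3 and 74.2 RPKM, and NCAPG, a condensin subunit, with 56.3, 52.7 and 54.0 RPKM. Both coding transcripts of G3BP1, a stress granule protein, completed the 5, with 120.8 to 128.9 RPKM. Since 31 transcripts lay within 0.02 of the CCT pattern and 186 within 0.05, over only 3 samples, the pattern is shared widely.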
